A study of Homo sapiens with 10 samples.

Results

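The genes described here are 10 of the 37 genes on mitochondrial DNA (mtDNA): MT-RNR1, MT-RNR2, MT-ND1, MT-ND2, MT-ND4, MT-ND5, MT-CYB, MT-CO1, MT-CO2 and MT-CO3. They were chosen by the peaks that a ChIP-seq study of H4R3me2s listed on mtDNA. H4R3me2s is histone H4 dimethylated symmetrically at arginine 3. Peaks whose chromosome was MT were taken from 13 peak lists and assigned to genes by their GRCh38 position. The peak values therefore chose the genes, and they are given as a description without a test.

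Human mtDNA is a small circular molecule present in many copies per cell. It encodes the RNAs of the mitochondrial ribosome, tRNAs and a few subunits of the respiratory chain, all other mitochondrial proteins being encoded in the nucleus. It is packed by the protein TFAM into nucleoids and carries no histones, so a peak on it cannot be read as a histone mark and is described here as a matter of read content. Stretches of mtDNA have also been copied into the nuclear chromosomes during evolution, and such copies can be nearly identical to their source.

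All libraries came from SH-SY5Y, a human neuroblastoma line, here a Tet-on line for α-synuclein kept in 300 µg/ml zeocin. Cells of every group were fixed for 10 minutes in 1% formaldehyde. BDNF+Dox cells (n = 3) were differentiated over 10 days. They spent 6 days in 3% FCS with retinoic acid at 10 µM, then 4 serum-free days with BDNF, a neurotrophin, at 50 ng/ml. They also received 1 µg/ml doxycycline for 3 days to induce α-synuclein. BDNF cells (n = 3) had the same differentiation without doxycycline, and Naive cells (n = 3), grown in 10% FCS, had neither. The labels name no line without the construct given doxycycline, so doxycycline and α-synuclein cannot be told apart. Nor do they say whether replicates were separate cultures, so the spread between libraries may be technical. There was 1 Input library without antibody, labelled as untreated. The libraries kept 17164402 to 18928589 tags each and the Input 17074000, a tag being 1 aligned read after removal of repeats at the same position and strand.

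No mtDNA peak was found in any of the 9 libraries called against Input. BDNF+Dox libraries had 0, 0 and 0, BDNF libraries 0, 0 and 0, and Naive libraries 0, 0 and 0, among 67753 peaks in all and 4536 to 12207 per library. The groups were alike in this, at the authors' p threshold of 0.01. In each library 2 to 5 peaks had a pileup (overlapping fragments at the highest point) above 100. All of these lay on contigs outside the assembled chromosomes and 0 on the chromosomes. A list without an mtDNA peak does not give the amount of mtDNA in a library, because only places above the Input were listed. The lists do not give the Input depth on mtDNA, and why no mtDNA peak was called was not tested.

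The merged comparisons were different. When the 3 BDNF+Dox libraries were merged and called over the merged BDNF libraries, the authors' narrow list held 11 mtDNA peaks among 9877. Over the merged Naive libraries it held 11 among 7919. At a q of 0.05 or less, 10 of the 11 passed over BDNF, where 0.952% of all peaks in the list passed. Over Naive 11 of 11 passed, where 1.2% of the list passed. The peaks on mtDNA took ranks 1 to 7, 14, 17, 30 and 622 by q over BDNF, and ranks 1 to 10 and 13 over Naive. Per the file headers q was not to be calculated, but the deposited column is filled, and its values were taken as they stand. In the authors' broad lists 5 regions lay on mtDNA in each comparison. Of these, 4 over BDNF and 5 over Naive had a q of 0.05 or less, against 0.0475% and 0.0544% of all broad regions. Both comparisons share the BDNF+Dox reads, so they are not independent of each other. With 1 merged file per group they also carry no spread between replicates, and how much each BDNF+Dox library contributed was not measured.

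The mtDNA peaks were taller than every narrow peak on the nuclear chromosomes, with folds below or near theirs. Their pileup ran between 132.88 and 224.36 with a median of 175.25 in the list over BDNF, while peaks on the chromosomes had a median of 12.52 and a maximum of 52.96. In the list over Naive the mtDNA range was 134.87 to 227.71 with a median of 175.92, against a chromosome median of 12.71 and maximum of 68.41. Outside mtDNA, 1 further peak of the narrow list over BDNF exceeded a pileup of 100. It lay on the contig KI270466.1 at bases 336 to 542 and had a pileup of 174.29 and a fold of 1.69. The fold enrichment, the authors' ratio of BDNF+Dox over local background, was 1.38 to 2.56 on mtDNA over BDNF with a median of 2.1. Chromosome peaks of that list had a median fold of 2.77. Over Naive the mtDNA fold was 1.74 to 3.16 with a median of 2.88, and chromosome peaks had a median of 2.78.

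**Figure D1:**
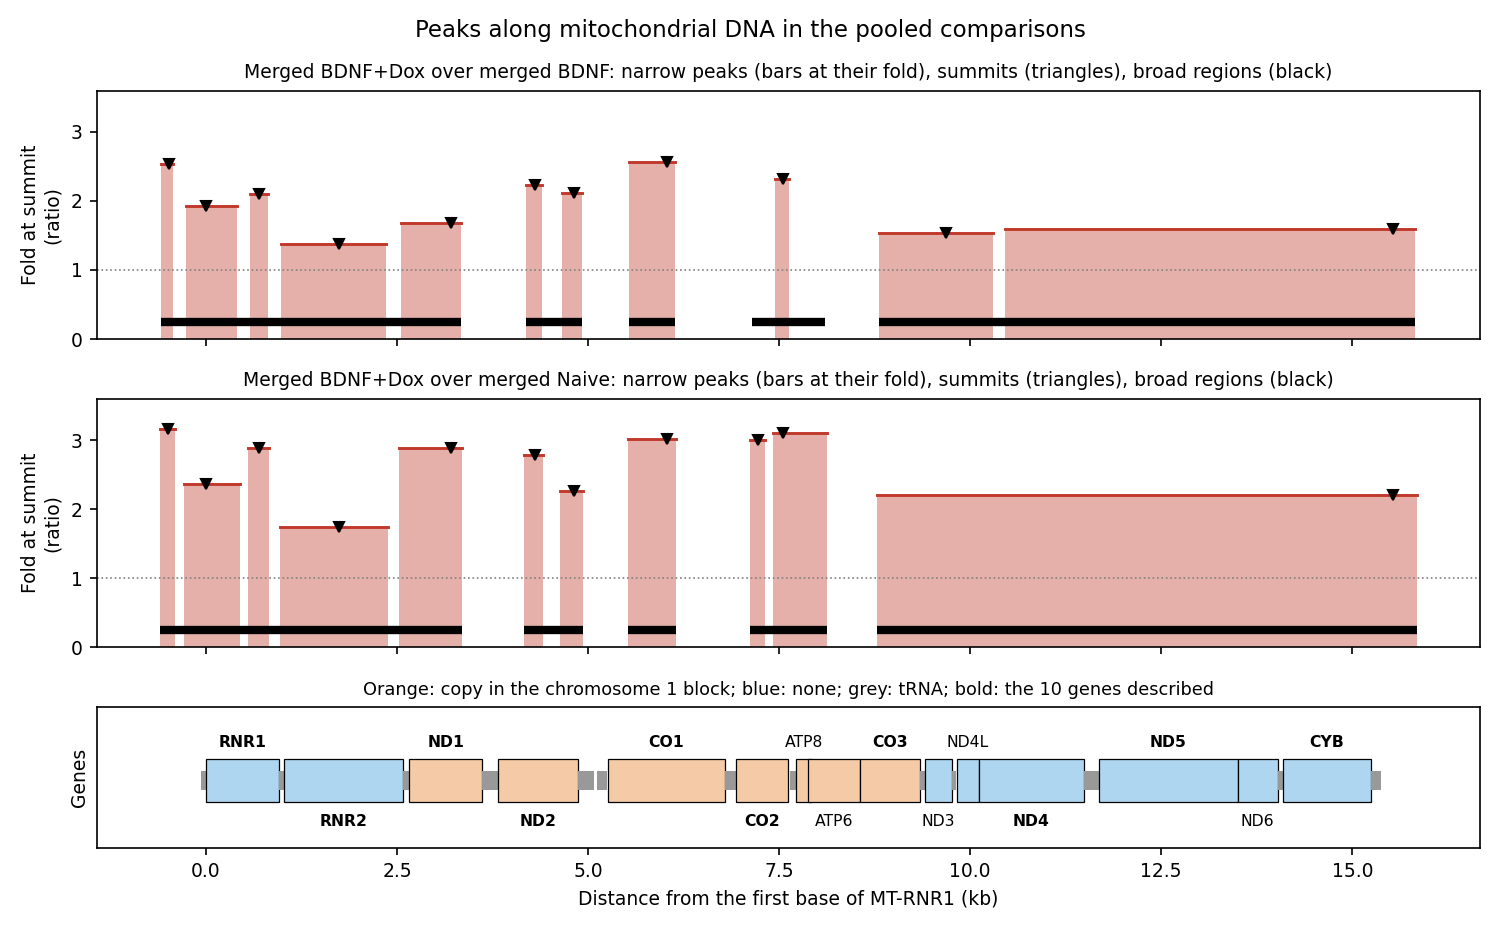
The position along mtDNA in kb from the first base of MT-RNR1 is on the horizontal axis and the authors' fold (ratio) on the vertical axis, for BDNF+Dox over BDNF in the upper panel and over Naive in the middle panel; the lower panel shows the genes. The 11 narrow peaks of each comparison lie at the same places in both panels except where neighbours were joined or a further one was called, and the 4 gaps between the broad regions lie between MT-ND1 and MT-CO3.

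Along the circle, the peaks lay between bases 58 and 16474 over BDNF and between bases 46 and 16494 over Naive. Narrow peaks covered 11356 bp over BDNF and 12603 bp over Naive, and broad regions covered 13240 bp and 13426 bp. Of the 15447 bp between the first and the last annotated gene (bases 577 to 16023), narrow peaks took 68.3% over BDNF and 75.8% over Naive. Broad regions took 79.4% over BDNF and 80.4% over Naive. The signal thus ran over most of the molecule and was not limited to one gene. On average 165.1 BDNF+Dox tags overlapped a base of the broad regions called over BDNF, whereas the genome mean was 3.3 tags in a window of 1 fragment length. These regions held an estimated 0.0245% of all kept BDNF+Dox tags.

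The ribosomal RNA genes come first after the control region, the stretch without genes where replication and transcription start. MT-RNR1 (bases 648 to 1601) encodes the RNA of the small ribosomal subunit. Narrow peaks covered 68.1% of it over BDNF and 75.2% over Naive, and a broad region covered 100% in both comparisons. At its summit, base 1341, there were 180 BDNF+Dox tags against a BDNF background of 82 tags, a fold of 2.1 (q = 7.65e-12, as the authors' other q-values here). Over Naive the same 180 tags stood against a background of 60.15 tags from a 1 kb window, a fold of 2.89 (q = 3.15e-26). The neighbouring peak at bases 382 to 1059 also reached into MT-RNR1, with its summit at base 646 in MT-TF, the gene of the phenylalanine tRNA, where BDNF+Dox had 180 tags and BDNF 90.

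MT-RNR2 (bases 1671 to 3229) encodes the RNA of the large ribosomal subunit. It was covered for 87% over BDNF and 90.6% over Naive by narrow peaks and for 100% by broad regions. Its summit at base 2393 had 218 BDNF+Dox tags, against 152 BDNF tags and 122 Naive tags. These were the highest counts inside a gene in all 3 groups, and the folds were the lowest on mtDNA, 1.38 over BDNF and 1.74 over Naive. The peak at bases 1632 to 3002 was the narrow mtDNA peak over BDNF that did not reach a q of 0.05 (q = 0.438). Over Naive the corresponding peak had q = 1.67e-08.

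Among the complex I genes, whose products form part of NADH dehydrogenase, MT-ND1 and MT-ND2 were covered in part and MT-ND4 and MT-ND5 almost or fully. MT-ND1 (bases 3307 to 4262) was covered for 71.1% over BDNF and 72.7% over Naive, the uncovered stretch being its end. Its summit at base 3852 had 173 BDNF+Dox tags, against 99 BDNF tags and 58 Naive tags. The fold was 1.68 over BDNF (q = 0.000267) and 2.88 over Naive (q = 1.76e-25), the widest spread between the comparisons.

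MT-ND2 (bases 4470 to 5511) carried a pair of narrow peaks with summits at bases 4949 and 5467. At the first, BDNF+Dox had 182 tags against 78 BDNF and 63 Naive tags, giving folds of 2.23 and 2.79. At the second, BDNF+Dox had 184 tags against 83 BDNF and 79 Naive tags, giving folds of 2.12 and 2.26. The narrow peaks covered 41.2% of the gene over BDNF and 46.4% over Naive, and the broad regions 65.4% and 67.2%. MT-ND4 (bases 10760 to 12137) was covered for 88.5% over BDNF and 100% over Naive, and MT-ND5 (bases 12337 to 14148) for 100% in every pooled list. No summit fell in either gene. Over Naive 1 long peak, at bases 9429 to 16494, ran across both. Over BDNF MT-ND4 held the end of the peak at bases 9460 to 10948 and the start of the one at bases 11108 to 16474, which ran on across MT-ND5.

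MT-CYB (bases 14747 to 15887) encodes cytochrome b, the mtDNA-encoded subunit of complex III, and was covered for 100% throughout. The summit of its long peak lay beyond the gene at base 16184, in the control region. There BDNF+Dox had 233 tags, against 140 BDNF tags and 103 Naive tags, with folds of 1.6 (q = 2.89e-05) and 2.2 (q = 8.38e-20). This was the highest BDNF+Dox count at any mtDNA summit. The other summit in the control region, at base 158 over BDNF, had the lowest, with 138 BDNF+Dox tags against 52 BDNF tags.

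The complex IV genes encode the catalytic core of cytochrome c oxidase, and MT-CO2 and MT-CO1 had the lowest narrow coverage of the 10 genes over BDNF. MT-CO1 (bases 5904 to 7445) had 1 peak over 38.5% of its length over BDNF and 40.8% over Naive. Its summit at base 6685 had 196 BDNF+Dox tags, against 73 BDNF and 63 Naive tags. The fold of 2.56 over BDNF was the highest on mtDNA in that comparison (q = 2e-21), and over Naive it was 3.01 (q = 5.54e-30), with the smallest q of the list. MT-CO1 thus combined the strongest call with a narrow covered share below that of 8 other genes of the 10 over BDNF.

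MT-CO2 (bases 7586 to 8269) was covered for 26% by a narrow peak over BDNF and for 58.5% by 2 narrow peaks over Naive. Broad regions covered 70.6% and 73.1% of it. At the shared summit, base 8195, there were 172 BDNF+Dox tags, against backgrounds of 70.95 BDNF and 53.53 Naive tags taken from 10 kb windows. A wider window is used where it holds more per fragment length than the summit itself, so the BDNF and Naive counts at this place were lower than those values. The further summit, listed over Naive alone at base 7870, had 164 BDNF+Dox tags and a fold of 3. MT-CO3 (bases 9207 to 9990) held no summit and was covered for 67.7% over BDNF and 71.7% over Naive by the peak that starts within it. Over BDNF that peak, at bases 9460 to 10948, had its summit in MT-ND3, a further complex I gene, with 205 BDNF+Dox tags against 128 BDNF tags and a fold of 1.54.

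**Figure D2:**
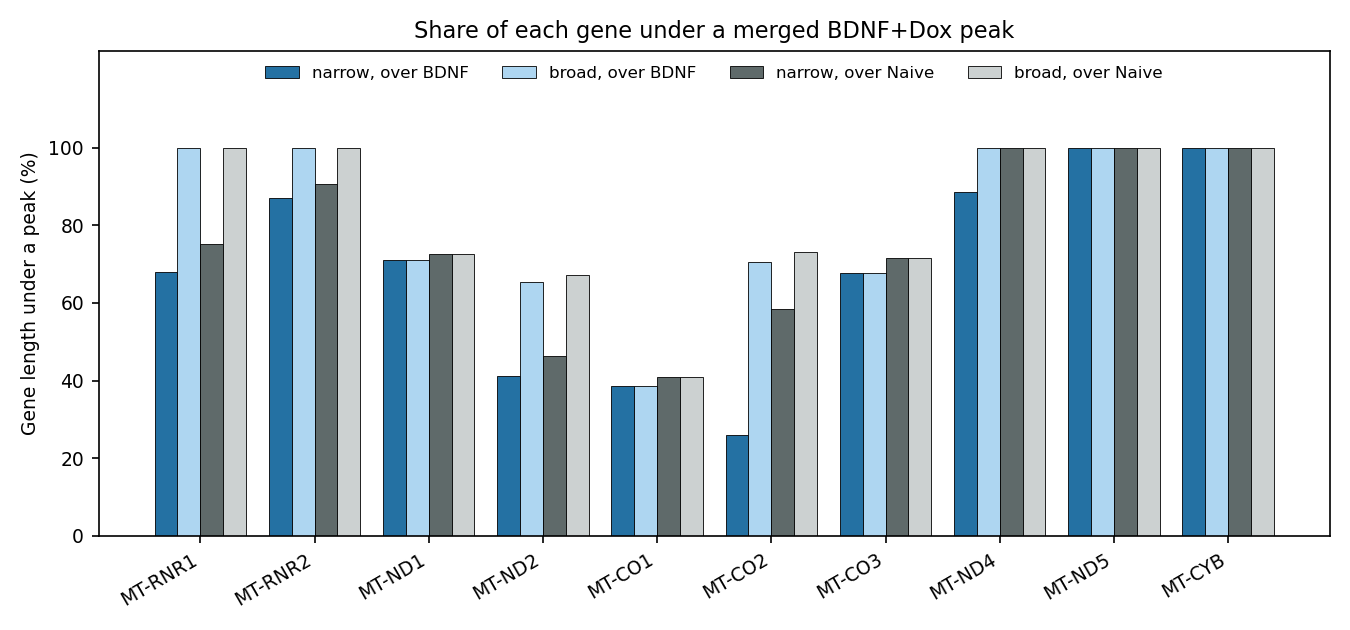
The vertical axis gives the percentage of each gene's length under a merged BDNF+Dox peak, in narrow and broad lists over BDNF and over Naive, for the 10 genes in their order on mtDNA. The genes from MT-ND1 to MT-CO3 stay below 75%, and MT-ND5 and MT-CYB are at 100% in all 4 lists.

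All 10 genes had a narrow peak and a broad region in both comparisons. This followed from how they were chosen, and it rested on long peaks: a summit lay within 6 of the 10. Of the other 27 mtDNA genes, 15 had a narrow peak over BDNF and 18 over Naive, and 18 had a broad region in each. The 9 without a broad region were tRNA genes, MT-TI, MT-TQ, MT-TM, MT-TA, MT-TN, MT-TC, MT-TY, MT-TS1 and MT-TD. All of these lie in the gaps between broad regions. Over BDNF the gaps ran over bases 3987 to 4830, 5570 to 6188, 6782 to 7786 and 8751 to 9459. Over Naive they were at bases 4002 to 4811, 5586 to 6167, 6797 to 7769 and 8771 to 9428.

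The gaps are what the peaks that chose the genes left uncovered, so their position is given as a description. All the gaps fell within the stretch from MT-ND1 to MT-CO3, and copies of the protein-coding genes of that stretch stand in a row on chromosome 1 at bases 629062 to 634922. That block of 5861 bp holds MTND1P23, MTND2P28, MTCO1P12, MTCO2P12, MTATP8P1, MTATP6P1 and MTCO3P12. In the 13 lists it had 0 peaks. Of all pseudogenes, 0.398% had a pooled narrow peak over BDNF and 0.359% over Naive, so the 0 is not a result about these copies. The copies at the ends of the block are short, MTND1P23 with 379 bp against 956 bp of MT-ND1 and MTCO3P12 with 547 bp against 784 bp of MT-CO3. The 5 genes with a copy there (MT-ND1, MT-ND2, MT-CO1, MT-CO2 and MT-CO3) had 48.1% of their bases under narrow peaks over BDNF and 55.3% over Naive. The 5 without one in this block (MT-RNR1, MT-RNR2, MT-ND4, MT-ND5 and MT-CYB) had 90.3% and 94.4%. Copies elsewhere in the nuclear chromosomes were not considered, and how alike genes and copies are was not measured. For broad regions the shares were 59.3% and 61.6% with a copy, and 100% and 100% without. Gene by gene, broad shares over BDNF were 38.5% to 71.1% in the 5 with a copy and 100% in the 5 without. The narrow shares over BDNF overlapped, as MT-ND1 had 71.1% and MT-RNR1 68.1%. Over all 7 genes with a copy the broad shares over BDNF ran from 32.9% to 100%, since MT-ATP8, which lies outside the gaps, was fully covered. The genes of a set are neighbours under shared peaks and no test was made. How the aligner treated reads that match both places is not given in the sources used here, and its part in the gaps was not tested.

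The tag counts at the summits allowed the 3 groups to be set side by side. They were recovered from the authors' pileup, fold and scaling, and 10 summits were common to both comparisons. BDNF+Dox tags numbered 138 to 233 per fragment-length window. BDNF tags numbered 52 to 152 at the 9 summits where they could be counted in such a window, and Naive tags 42 to 122 at 8. The 95% Poisson intervals of BDNF+Dox and BDNF were apart at 9 of 9 summits where both could be computed, and those of BDNF+Dox and Naive at 8 of 8. Those intervals cover counting error only, and the summits were picked where BDNF+Dox was high, so the gaps read from them are a description. The genome-wide means were close, at 3.3 tags per window in the BDNF+Dox file, 3.18 in the BDNF file and 3.23 in the Naive file.

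BDNF cells stood between BDNF+Dox and Naive cells at 9 of the 10 summits. Per kept tag, BDNF was 1.07 to 1.73 times Naive, with a median of 1.26, at the 8 summits where both were counted. At MT-RNR1 the BDNF count lay above the upper limit for Naive. At MT-CO2 both values are upper limits, so the order of BDNF and Naive there is not known. The difference was largest at MT-ND1, where the intervals were 80.5 to 120.5 tags in BDNF and 44 to 75 tags in Naive cells. At the other 7 of the 8 summits with an interval for each group, the BDNF and Naive intervals overlapped. The summits lie on 1 molecule and come from 1 merged file per group, so they are not replicates of the BDNF to Naive difference. Whether the tags follow the mtDNA content of the cells was not tested, and that content was not measured. In bulk libraries more mtDNA per cell and more cells rich in mtDNA could not be told apart either.

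**Figure D3:**
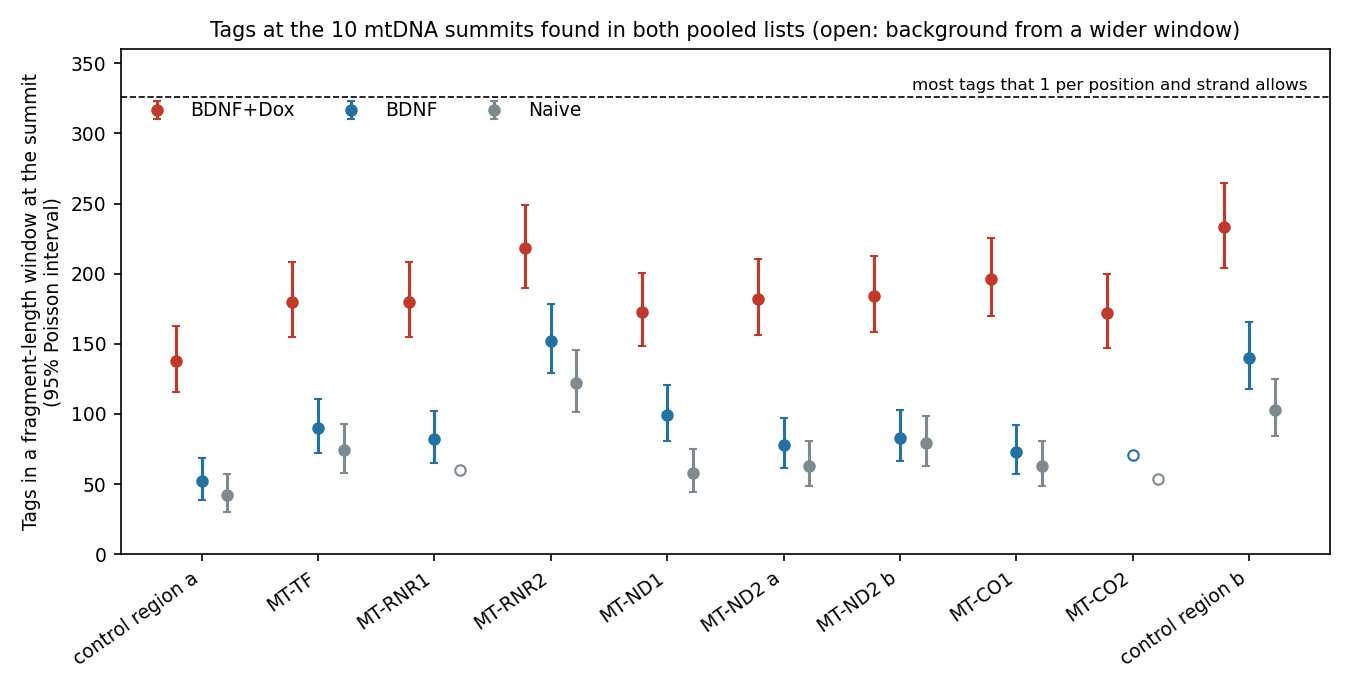
The vertical axis gives tags in a fragment-length window at the 10 summits shared by both comparisons, in BDNF+Dox, BDNF and Naive cells, with 95% Poisson intervals (counting error only; 1 merged file per group). BDNF+Dox points, between 138 and 233, lie above the BDNF and Naive points at every summit, and open points are backgrounds taken from a wider window.

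Keeping 1 tag per position and strand limits how high mtDNA can count. With a fragment length of 163 bp and 2 strands, a window can hold at most 326 tags. BDNF+Dox filled 42.3% to 71.5% of this at the shared summits. BDNF filled 16% to 46.6% and Naive 12.9% to 37.4% at the summits where they were counted. The fuller a window, the more further reads fall on a position already taken. If reads fell on positions at random, the ratio corrected for this would have a median of 2.67 over BDNF, with a range of 1.69 to 3.49, over the 11 summits of that comparison. Without the correction the ratio per kept tag had a median of 2.11. Over the 11 summits of the Naive comparison the corrected median was 3.77, with a range of 2.3 to 4.18, and the uncorrected one 2.92. Where the background came from a wider window, as at MT-CO2, the ratio that entered these medians is a lower limit. The correction was chosen after seeing the data.

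Above the genome mean, mtDNA was deep in every group. BDNF+Dox summits stood at 41.8 to 70.5 times the mean of their merged file, BDNF at 16.3 to 47.8 times and Naive at 13 to 37.8 times where counted. The depth profile along the molecule was also shared: MT-RNR2 and the control region at base 16184 were the highest of the 10 places in all 3 groups. The other control-region summit, at base 158 over BDNF, was the lowest in BDNF+Dox cells and, among the places that were counted, in BDNF and Naive cells.

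The nuclear partners of these genes were examined in the same lists, since the respiratory chain and the mitochondrial ribosome are built from products of both genomes. A gene counted as having a peak when 1 lay in it or within 2 kb. Of 80 nuclear genes of oxidative phosphorylation, 6 had a pooled narrow peak over BDNF and 7 over Naive (7.5% and 8.75%). Among all 20037 nuclear protein-coding genes the shares were 14.7% and 13.1%. None of the listed nuclear genes had a peak with a q of 0.05 or less in either comparison, where 0.12% and 0.19% of all protein-coding genes had one. The strongest peaks by p of this list were at ATP5MC2, which encodes a subunit of the ATP synthase ring (fold 3, q = 1), and at NDUFA5 (fold 2.66, q = 1) and SDHB (fold 2.77, q = 1), subunits of complexes I and II, over BDNF. Over Naive they were at NDUFB2 (fold 2.74), COXFA4 (fold 2.59) and UQCRH (fold 2.78), all with q = 1.

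Of 76 genes of mitochondrial ribosomal proteins, 7 had a peak over BDNF and 6 over Naive (9.21% and 7.89%). The shares of all nuclear protein-coding genes were 14.7% and 13.1%. MRPS10 was the strongest over BDNF (fold 3.46, q = 0.486), followed by MRPS24 and MRPS21. MRPS21 was the strongest over Naive (fold 3.39, q = 0.348), followed by MRPS28 and MRPL21. Of 45 genes of mtDNA replication, packaging, transcription and RNA processing, 7 had a peak in each comparison (15.6%). This was near the 14.7% and 13.1% of all protein-coding genes. LRPPRC, which stabilizes mitochondrial mRNAs, led over BDNF with a fold of 3.01 (q = 0.797), before PRORP and SUPV3L1. MTERF4, a factor of mitochondrial ribosome assembly, led over Naive with a fold of 3.7 (q = 0.214), before RNASEH1 and EXOG.

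Of 25 genes of mitochondrial biogenesis and dynamics, 9 had a peak over BDNF and 6 over Naive (36% and 24%). Among all nuclear protein-coding genes 14.7% and 13.1% had one. PPARGC1A, a coactivator that drives mitochondrial biogenesis, had a fold of 3.25 over BDNF (q = 0.486) and 2.61 over Naive (q = 1). NRF1, a transcription factor of nuclear genes for the respiratory chain, had folds of 2.92 (q = 0.776) and 3.22 (q = 0.564). MFF over BDNF and GABPA over Naive were the other leading genes, with folds of 3.3 and 2.8. Gene length was not matched between the lists and all protein-coding genes, so the shares are not corrected for it.

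In the 9 libraries against Input, the same lists could be set against the spread between replicates. Mitochondrial ribosomal protein genes with a peak numbered 7, 8 and 7 in BDNF+Dox libraries. BDNF libraries had 2, 1 and 5 and Naive libraries 5, 3 and 3. The BDNF+Dox libraries lay above all others. The BDNF+Dox mean was 7.33 ± 0.577, the BDNF mean 2.67 ± 2.08 and the Naive mean 3.67 ± 1.15 (SD, n = 3 each). An exact permutation test over the 3 groups gave p = 0.0214, which was 0.107 after Benjamini-Hochberg adjustment over 5 measures and did not pass. With each count taken as a share of all protein-coding genes with a peak in that library, the exact permutation p was 0.0643, adjusted 0.161. Without BDNF replicate 3 the difference from BDNF became 5.83 genes and the exact permutation p, adjusted, 0.0179, where leaving out each library in turn gave adjusted values of 0.0179 to 0.339. At a −log10 p of 5 or more the difference from BDNF was 0 (exact permutation p = 0.25, adjusted 1): BDNF+Dox libraries then had 0, 0 and 0 such genes, BDNF libraries 0, 0 and 0, and Naive libraries 2, 0 and 1. The share of all protein-coding genes with a peak was itself 14.4%, 10.7% and 10.2% in BDNF+Dox libraries. It was 8.76%, 7.29% and 10.1% in BDNF libraries and 13%, 8.18% and 10.6% in Naive libraries. The listed share in BDNF+Dox libraries, 9.21%, 10.5% and 9.21%, was below that background in each library.

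MRPL3, a protein of the large mitochondrial ribosomal subunit (chromosome 3, bases 131462212 to 131502971), carried a peak in each of the 3 BDNF+Dox libraries, against 0 of the 6 BDNF and Naive libraries. It was picked from the 76 listed genes because it showed this pattern. The folds over Input were 3.45, 3.19 and 3.95, with q = 1 each, and the 3 peaks lay at different places of the gene. Among all protein-coding genes, 0.399% showed this pattern against BDNF and 0.265% against Naive libraries.

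The other lists overlapped between groups or were nearly empty. Oxidative phosphorylation genes with a peak numbered 3, 1 and 6 in BDNF+Dox libraries, against 3, 3 and 1 in BDNF libraries and 1, 1 and 2 in Naive libraries (exact permutation p = 0.4, adjusted 0.5). Replication and transcription genes numbered 5, 4 and 3 in BDNF+Dox libraries, against 1, 1 and 3 in BDNF libraries and 5, 3 and 4 in Naive libraries (exact permutation p = 0.114, adjusted 0.286). Biogenesis and dynamics genes numbered 5, 4 and 1 in BDNF+Dox libraries, against 3, 4 and 4 in BDNF libraries and 5, 1 and 5 in Naive libraries (exact permutation p = 1). Per library, 1.25% to 7.5% of the oxidative phosphorylation genes had a peak, beside 7.29% to 14.4% of all protein-coding genes. For replication and transcription genes the share was 2.22% to 11.1%, and for biogenesis and dynamics genes 4% to 20%. Between any pair of groups, 3 libraries against 3 cannot give an exact two-sided p below 0.1.

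**Figure D4:**
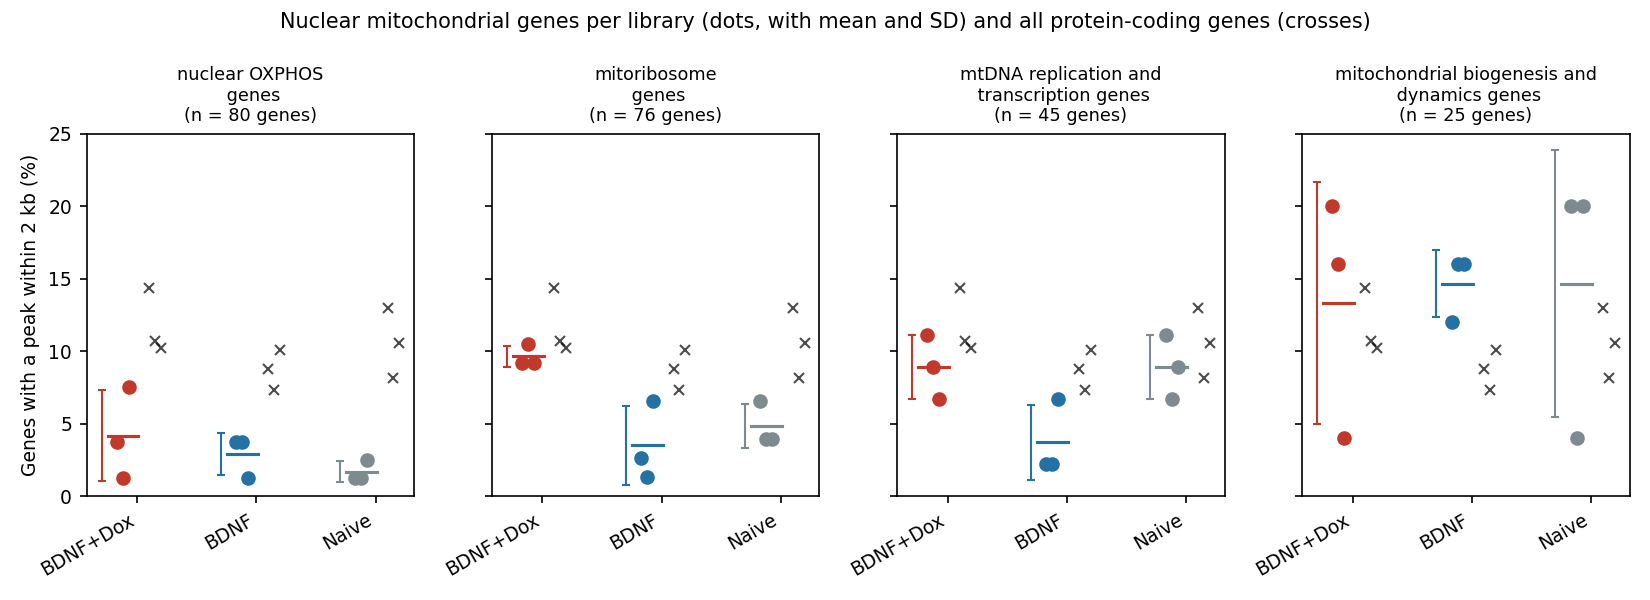
The vertical axis gives the percentage of each nuclear gene list with a peak within 2 kb in each of 3 BDNF+Dox, 3 BDNF and 3 Naive libraries against Input (dots, with the mean as a line and the SD as a bar), beside the same share of all protein-coding genes (crosses). Mitochondrial ribosomal protein genes in BDNF+Dox, at 9.21%, 10.5% and 9.21%, lie above the dots of the other libraries in that panel and below the crosses of their own libraries.

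Nuclear copies of mtDNA genes had few peaks, and so had pseudogenes as a whole. Of 487 annotated copies, 0 had a pooled narrow peak over BDNF and 1 over Naive, MTCO2P8 on chromosome 7 (fold 3.01, q = 1). Over all pseudogenes the shares were 0.398% and 0.359%, beside 0% and 0.205% of the copies. In the libraries BDNF+Dox had 0, 0 and 0 such genes, BDNF had 1, 1 and 0, and Naive had 0, 0 and 0 (exact permutation p = 0.25, adjusted 0.417). For the libraries the share over all pseudogenes was not computed. The deep peaks were listed on mtDNA and not at the annotated copies. How reads matching both were placed is not given, and the origin of the mtDNA reads was not tested.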

How the data were processed

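Peak lists of 9 H4R3me2s libraries over Input and of merged BDNF+Dox over merged BDNF and Naive were used. The submitters' processing notes name cutadapt 1.1, Trimmomatic 0.32, Bowtie, MACS2 2.2.7.1 and GRCh38. Per the file headers, the p cutoff was 0.01, 1 tag was kept per position and strand, and MACS2 scaled the deeper dataset down. The deposited values are pileup (signal), −log10 p-value, −log10 q-value and fold, a ratio with a pseudocount of 1, all computed by the authors. Calls show only more signal in BDNF+Dox.

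BDNF+Dox tags at a summit were computed as pileup divided by the scaling, and came out whole within 0.005. The control background was (pileup + 1)/fold − 1. It was a whole number, from a fragment-length window, in 18 of 22 cases, from 1 kb in 1 and from 10 kb in 3. A Poisson p recomputed from these differed from the authors' −log10 p by at most 0.0013. Merged files kept 54723304 (BDNF+Dox), 52693520 (BDNF) and 53481523 (Naive) tags.

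Gene positions were RefSeq's on GRCh38; a peak was assigned by an overlap of 1 bp. Nuclear lists were compared by exact permutation of the F ratio over all 1680 assignments and, for pairs, of the difference of means. Scripts ran in Python 3.11.15 with NumPy 2.4.6, pandas 2.3.3 and SciPy 1.17.1, and were tested on simulated data. Named nuclear genes were those with a pooled peak of q 0.05 or less, otherwise up to 3 per list and comparison with the largest −log10 p, and those called in every library of 1 group but in no library of a second. The genes and lists were chosen with earlier results of these data known. Alternatives were stricter peaks, broad peaks, other gene windows, shares of all protein-coding genes with a peak, leaving out each library and a replicate block.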

Additional observations from a re-analysis of the deposited data

How the results depend on the processing

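Counting broad regions in place of narrow peaks gave 5 mtDNA regions over BDNF and 5 over Naive, because neighbouring narrow peaks are joined there. Requiring a summit, or at least 50% of a peak, inside the gene left 6 of the 10 mtDNA genes in each comparison. Counting nuclear copies with 2 kb on each side turned their difference between BDNF+Dox and BDNF to 0.333 genes per library, against -0.667, and the cause was not tested. At a −log10 p of 5 or more the difference was 0 for mitochondrial ribosomal proteins (against 4.67), 0 for biogenesis (against -0.333), 0 for nuclear copies and 0.333 for replication and transcription (against 2.33), as few peaks pass. With 1 library left out, the number of mtDNA peaks over Input stayed at 0. The difference between BDNF+Dox and BDNF in genes with a peak was then 3.83 to 5.83 for mitochondrial ribosomal proteins, -0.333 to 2.17 for oxidative phosphorylation, -1.17 to 0.833 for biogenesis, 1.83 to 3 for replication and transcription and -1 to -0.5 for nuclear copies. The sign turned for oxidative phosphorylation (-0.333) and biogenesis (0.833) without BDNF+Dox replicate 3. In all, 51 of 54 values with a library left out and 32 of 42 under other settings were classed as unchanged. Unchanged means the same direction and side of the threshold or, for counts, within 1.5 times. Part of this tally was fixed in advance. Leaving out a library or filtering peaks could only keep the 0 mtDNA peaks over Input at 0. Leaving out a Naive library cannot change a difference between BDNF+Dox and BDNF, only its p. Peak shares of same-numbered libraries correlated at -0.356 to 0.238 over 308 bins of 10 Mb, 2 of 9 above 0.1. Other pairs of libraries from different groups correlated at -0.329 to 0.302. These values cannot show whether same-numbered libraries shared a culture, which the labels do not say. With a replicate block the exact permutation p was 0.0833 for mitochondrial ribosomal proteins (adjusted 0.417), and the block changed no call. With 1 merged file per group no replicate error can be given for any mtDNA value.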
